A study of Mus musculus with 18 samples.

Results

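The lipins are a family of 3 phosphatidate phosphatases, encoded in the mouse by Lpin1, Lpin2 and Lpin3. All 3 genes were found by symbol in every library, among 24539 genes listed. They were selected on their read counts in these 18 libraries, so their levels and differences below are a description without a test. Poly(A) RNA was sequenced from the livers of wild-type male C57BL/6 mice that received 1 of 3 diets for 8 weeks from 8 weeks of age and were sampled at 16 weeks. Normal chow was the control diet, HFD stands for a high-fat diet, and HFD+LYC for that diet with added lycopene, a tomato carotenoid. Each diet had 3 livers. Every liver gave 1 library of total RNA (mRNA) and 1 of RNA recovered with ribosome-nascent chain complexes (RNC), the fraction of transcripts carrying ribosomes. No group received lycopene with chow, so the supplement was compared only on the high-fat background.

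Lipins remove the phosphate from phosphatidate to give diacylglycerol, the step before the last in triglyceride synthesis and a branch point to phosphatidylcholine and phosphatidylethanolamine. Lipin 1, the product of Lpin1, also enters the nucleus, where it acts with PGC-1α and PPARα on genes of fatty acid oxidation. In liver, Lpin1 is known as a gene of fasting and glucocorticoid signalling, lipin 2 is known as the form most abundant in hepatocytes, and lipin 3 is known mainly from the intestine, with a lower level in liver.

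Lpin1 (Entrez gene 14245) lies on the minus strand of chromosome 12, from 16535669 to 16653903 (GRCm38, RefSeq annotation). Lpin2 (64898) lies on the plus strand of chromosome 17, from 71183532 to 71249818, and Lpin3 (64899) on the plus strand of chromosome 2, from 160880670 to 160906000. The authors' tables merge the transcripts of each gene, and RefSeq identifiers show 3 for Lpin1, 2 for Lpin2 and 2 for Lpin3, so isoforms could not be separated. In the GENCODE annotation the lincRNA gene Gm26561 overlaps Lpin2 and the antisense gene Gm16751 overlaps Lpin3. No source used here says whether the counting used strand, so reads of these partners cannot be told apart from those of Lpin2 and Lpin3. The promoter windows of Lpin1 and Lpin2 are shown because their RNA was higher on the same diets, and that of Lpin3, whose mRNA did not follow, for contrast. Each runs 5′ to 3′ from 250 bases before to 50 bases after an annotated start site, from RefSeq GRCm38.p6, with an E-box in capitals. The windows are chr12:16610917-16611216 (minus strand), chr17:71183282-71183581 (plus strand) and chr2:160880420-160880719 (plus strand).
Lpin1: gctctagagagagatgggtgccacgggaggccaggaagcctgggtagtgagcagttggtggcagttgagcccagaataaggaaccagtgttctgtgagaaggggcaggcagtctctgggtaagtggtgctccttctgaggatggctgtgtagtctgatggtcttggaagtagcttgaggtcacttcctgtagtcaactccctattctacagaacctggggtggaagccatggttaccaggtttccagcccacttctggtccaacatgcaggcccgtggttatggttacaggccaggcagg
Lpin2: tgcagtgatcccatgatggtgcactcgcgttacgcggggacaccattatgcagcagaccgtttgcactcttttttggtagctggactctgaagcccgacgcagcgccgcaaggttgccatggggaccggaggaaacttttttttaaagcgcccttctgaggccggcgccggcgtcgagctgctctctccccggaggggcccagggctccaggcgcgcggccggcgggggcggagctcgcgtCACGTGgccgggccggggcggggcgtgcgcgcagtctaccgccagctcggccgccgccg
Lpin3: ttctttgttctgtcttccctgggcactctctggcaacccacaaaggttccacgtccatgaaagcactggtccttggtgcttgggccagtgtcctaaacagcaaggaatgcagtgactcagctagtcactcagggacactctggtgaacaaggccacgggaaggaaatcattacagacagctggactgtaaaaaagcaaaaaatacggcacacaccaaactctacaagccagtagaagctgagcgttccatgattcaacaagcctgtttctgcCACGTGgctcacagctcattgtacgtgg
The E-box (CACGTG, its own reverse complement) is the motif bound by the clock factors CLOCK and BMAL1 and by related basic helix-loop-helix proteins. It occurred once in the window of Lpin2, with its first base at position -9 from the start site, and once in that of Lpin3, with its first base at position 23. Lpin2 has 3 windows and Lpin3 has 2, of which the first is shown. The window of Lpin1, the only one listed for that gene, lies inside the annotated gene and held none. Of 32851 promoter windows of this length, 7.15% held an E-box. The cAMP element (TGACGTCA, 1.79% of windows), a sterol element (TCACNCCAC, 1.24%), the D-box (TTANGTAA, 2.32%) and the ROR element (TAGGTCA, 2.61%) were searched on both strands and were in none of the windows listed for the 3 lipins.

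The libraries held 4533729 to 12742436 listed reads. The RNC libraries of HFD+LYC livers stood apart from the rest: 8940, 9567 and 10037 genes had a read in them, against 13324 to 14450 in the other RNC libraries. Genes with exactly 1 read numbered 112, 70 and 74 in them, against 614 to 861 in the other RNC libraries. Their scaling factors were 0.428, 1.15 and 0.836, and the median log2 difference over all tested genes was -0.29 against HFD and -0.28 against control RNC. Levels in these 3 libraries therefore depend on the scaling more than elsewhere, and reads of Lpin2 per read of Lpin1 are given as well, which no scaling changes. Such a ratio does not correct for whatever else set these libraries apart, which was not tested. HFD+LYC mRNA replicate 2 had 189 genes with exactly 1 read, against 652 to 798 in the other mRNA libraries. It was the highest HFD+LYC mRNA library for all 3 lipins. All 9 hepatocyte markers were present in every library. In bulk tissue, fewer cells of a type and less RNA per cell cannot be told apart.

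Lpin1 mRNA was lowest on chow, higher on the high-fat diet and highest when lycopene was added. In CPM, the gene's reads scaled to a common library total with TMM factors, it was at 28.1, 22.2 and 16.6 in control livers. In HFD livers it was at 48.9, 82.9 and 48.7 CPM, and in HFD+LYC livers at 376, 744 and 556 CPM. The 3 groups did not overlap, and the lowest HFD+LYC liver lay above the highest HFD liver. On the log2 scale the difference was 1.43 (SE 0.387) for HFD against control, 3.21 (SE 0.410) for HFD+LYC against HFD, a 9.29-fold difference, and 4.65 (SE 0.439) for HFD+LYC against control. Of 12664 genes tested, 36 had a larger log2 difference between HFD+LYC and HFD mRNA.

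In the RNC libraries Lpin1 was at 12.5, 13.4 and 4.81 CPM in control, 18.3, 15.6 and 15.9 CPM in HFD and 460, 479 and 633 CPM in HFD+LYC livers. The HFD livers lay just above the control livers, and the HFD+LYC livers far above both. The log2 difference was 0.69 (SE 0.357) for HFD against control, 4.98 (SE 0.410) for HFD+LYC against HFD and 5.68 (SE 0.425) for HFD+LYC against control. With library size alone as the scaling, the RNC levels were 197, 551 and 529 CPM in HFD+LYC against 20.8, 20.9 and 18.2 CPM in HFD livers, and the log2 difference was 4.41 (SE 0.552).

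**Figure D1:**
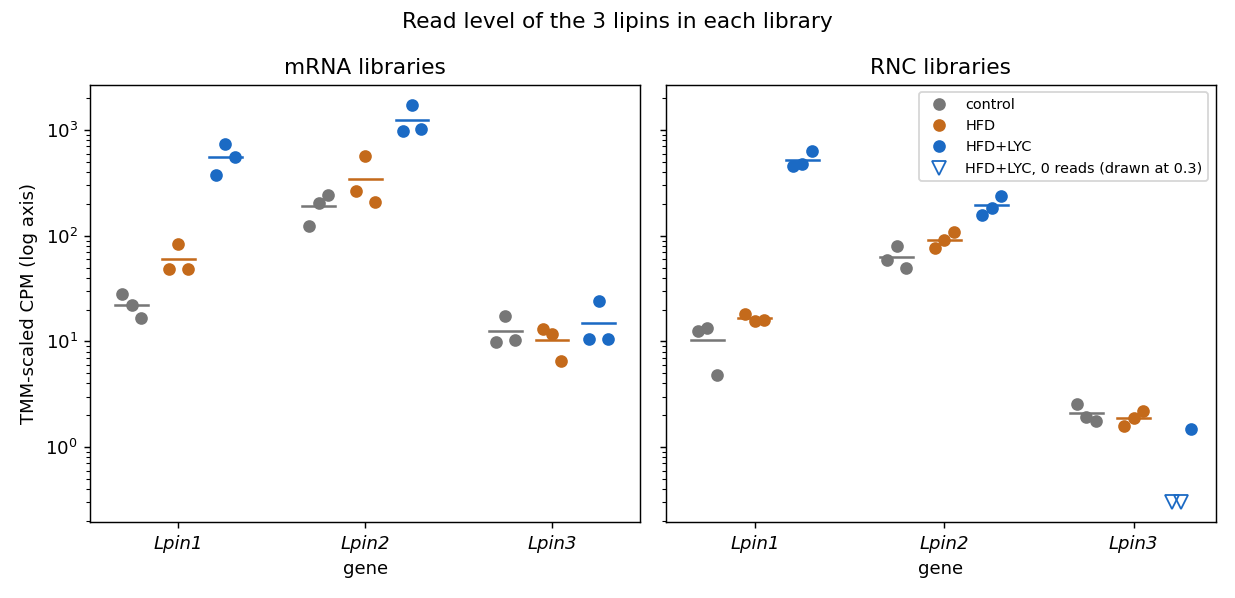
TMM-scaled CPM (log axis) of the 3 lipins in each of 9 mRNA and 9 RNC libraries, 1 point per library, with a line at the mean of 3 livers where all had reads. Lpin1 in HFD+LYC livers sits between 376 and 744 CPM in mRNA and between 460 and 633 CPM in RNC, above every other group, while the 2 open triangles mark HFD+LYC RNC libraries with 0 Lpin3 reads.

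Lpin2 was the lipin with the highest level per length in liver mRNA on all 3 diets, and it too was highest with lycopene. Its mRNA was at 123, 203 and 244 CPM in control, 265, 569 and 209 CPM in HFD and 973, 1735 and 1022 CPM in HFD+LYC livers. Control and HFD livers overlapped, and all 3 HFD+LYC livers lay above them. The log2 difference was 0.87 (SE 0.468) for HFD against control, 1.84 (SE 0.479) for HFD+LYC against HFD and 2.71 (SE 0.495) for HFD+LYC against control. HFD replicate 2 was the highest HFD liver for both Lpin1 and Lpin2.

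Lpin2 differed less in the RNC libraries. It was at 59.2, 79.7 and 49.7 CPM in control, 76.6, 90.7 and 107 CPM in HFD and 159, 185 and 239 CPM in HFD+LYC livers. HFD livers differed from control livers by 0.54 (SE 0.262) on the log2 scale, and HFD+LYC livers by 1.08 (SE 0.264) from HFD and by 1.63 (SE 0.267) from control livers. The step from HFD to HFD+LYC rested on the scaling. With library size alone, Lpin2 was at 67.8, 213 and 199 CPM in HFD+LYC and at 87.1, 122 and 123 CPM in HFD livers, so that the groups overlapped, with a log2 difference of 0.53 (SE 0.434). On the deposited RPKM it was 0.17 (SE 0.434). The step from control to HFD+LYC depended on the scaling too. With library size alone, control livers were at 71.2, 85.6 and 53.3 CPM and overlapped the HFD+LYC livers, with a log2 difference of 1.19 (SE 0.439). On the deposited RPKM that difference was 0.80 (SE 0.434).

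Lpin3 mRNA was low on every diet and showed no separation of the groups. It was at 9.85, 17.5 and 10.3 CPM in control, 13, 11.7 and 6.52 CPM in HFD and 10.6, 24.0 and 10.6 CPM in HFD+LYC livers. The log2 difference was -0.27 (SE 0.408) for HFD against control and 0.53 (SE 0.407) for HFD+LYC against HFD. In RNC it had 29, 24 and 23 reads in control, 10, 30 and 32 reads in HFD and 0, 0 and 11 reads in HFD+LYC livers. A count of 0 allows up to 3 reads, or 0.265 and 0.662 CPM in those libraries, against 1.81 to 2.54 CPM in HFD livers with the same scaling by library size. Of the 2999 other genes with a mean of 1 to 5 CPM in HFD RNC, a range set after the Lpin3 values were seen, 54.2% had 0 reads in at least 2 HFD+LYC RNC libraries. The fitted log2 difference of -1.82 (SE 1.20) became -7.32 without HFD+LYC RNC replicate 3, the only one with reads.

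Counts of lipins past the threshold of the edgeR fits (Benjamini-Hochberg adjusted p under 0.05 over all genes) stand here beside the share of all genes, and nothing is read from them, since the same counts selected the genes. In HFD against control, 0 of 3 lipins were called in mRNA, where 0.0158% of 12664 genes were called, and 0 of 3 in RNC, where 0.00858% of 11660 genes were called. Lpin1 was called higher in HFD+LYC against HFD mRNA, beside 1.99% of genes higher and 0.916% lower. Lpin1 and Lpin2 were called higher in HFD+LYC against control mRNA, beside 3.31% higher and 2.23% lower. Both were also called higher in RNC, in HFD+LYC against HFD (9.34% of genes higher, 17.4% lower) and against control (9.23% higher, 17.1% lower). Without control mRNA replicate 1 or replicate 3, Lpin2 was not called in HFD+LYC against control mRNA (log2 difference over all libraries left out in turn, 2.39 to 2.93). Without HFD RNC replicate 2 it was not called in HFD+LYC against HFD RNC (0.90 to 1.22). Over all 17 fits, alternatives and left-out libraries included, Lpin2 was called in 14 against HFD RNC and in 15 against control RNC.
Groups that do not overlap were common in the same data. Between HFD and control livers, the higher group lay clear of the other for 3.76% of genes in mRNA and 6.97% in RNC, and 1 of 3 lipins, Lpin1, did so in each. Between HFD+LYC and HFD, 16.7% of genes in mRNA and 13.3% in RNC were higher without overlap, and between HFD+LYC and control 14.3% and 14.1%. Lpin1 and Lpin2 did so in all 4 of these comparisons on TMM-scaled CPM. With library size alone, Lpin2 overlapped in both RNC comparisons. Lpin3 was lower without overlap in both HFD+LYC comparisons of RNC, as were 28.1% of genes against HFD and 30.6% against control.

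The makeup of the lipin RNA differed more between the 2 kinds of library of HFD+LYC livers than within the other diets. Levels of different genes are compared here per length, on the deposited RPKM (reads scaled by the longest transcript's length and the library total), for which the authors' tables give 5626 bases for Lpin1, 5641 for Lpin2 and 3473 for Lpin3. In control mRNA, Lpin2 was at 28.6 ± 10.1 RPKM (SD, n = 3), Lpin1 at 3.33 ± 0.738 and Lpin3 at 3.06 ± 1.11, and the last 2 did not differ beyond their spread. In HFD+LYC mRNA the order was Lpin2 at 231 ± 111 RPKM, Lpin1 at 103 ± 45.7 and Lpin3 at 4.62 ± 3.00. In HFD+LYC RNC the order of the first 2 was the other way round, with Lpin1 at 60.4 ± 25.3 RPKM, Lpin2 at 22.6 ± 10.2 and Lpin3 at 0.101 ± 0.175.

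The summed RPKM of the 3 lipins was 35.0 in control, 68.0 in HFD and 339 in HFD+LYC mRNA, and 14.7, 22.7 and 83.1 in RNC. Lpin1 made up 10.6 ± 5.64% of the sum in control, 15.1 ± 2.92% in HFD and 30.7 ± 3.78% in HFD+LYC mRNA (SD, n = 3). Its share in RNC was 13 ± 4.17% in control and 15.2 ± 3.22% in HFD, close to the shares in mRNA, but 73.0 ± 1.21% in HFD+LYC livers. Lpin2 had the complementary shares in RNC, 82.4 ± 4.30%, 82.0 ± 3.13% and 26.9 ± 1.16%. The share of Lpin3 was 8.94 ± 2.65%, 4.36 ± 1.78% and 1.30 ± 0.237% in mRNA, a smaller share beside a similar level.

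**Figure D2:**
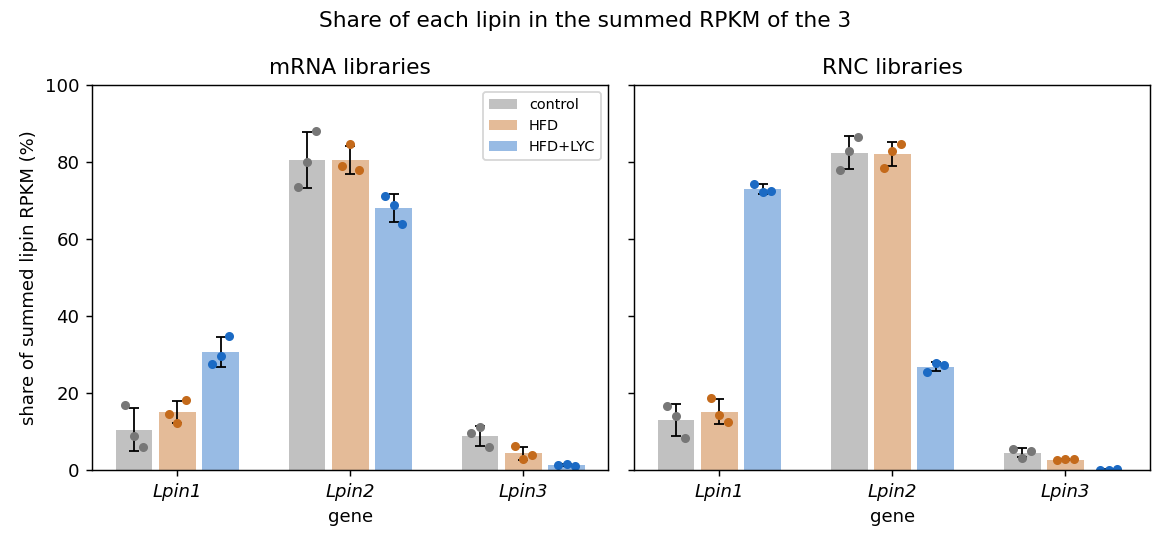
Share (%) of each lipin in the summed RPKM of the 3, by diet, for mRNA and RNC libraries. Bars are means of 3 livers, whiskers ± SD (cut at 0), and points single libraries. In HFD+LYC RNC Lpin1 holds 73.0% and Lpin2 26.9%, against 15.2% and 82.0% in HFD RNC.

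Within a library, Lpin2 had 4.37, 9.15 and 14.7 reads per Lpin1 read in control mRNA, 5.42, 6.87 and 4.30 in HFD mRNA and 2.59, 2.33 and 1.84 in HFD+LYC mRNA. In RNC the values were 4.73, 5.93 and 10.3 on chow, 4.19, 5.81 and 6.77 with HFD, and 0.345, 0.387 and 0.377 with HFD+LYC. Lpin2 reads outnumbered Lpin1 reads in 15 of 18 libraries, and the other 3 were the HFD+LYC RNC libraries. Within a liver, this ratio in mRNA divided by that in RNC was 0.926, 1.54 and 1.42 in control livers, 1.29, 1.18 and 0.635 with HFD, and 7.51, 6.03 and 4.88 with HFD+LYC. Control and HFD livers lay on both sides of 1, and all 3 HFD+LYC livers lay above every other liver. These values do not depend on library size or scaling. They compare reads of 2 genes of nearly equal transcript length, so they would also change if other isoforms were present.

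**Figure D3:**
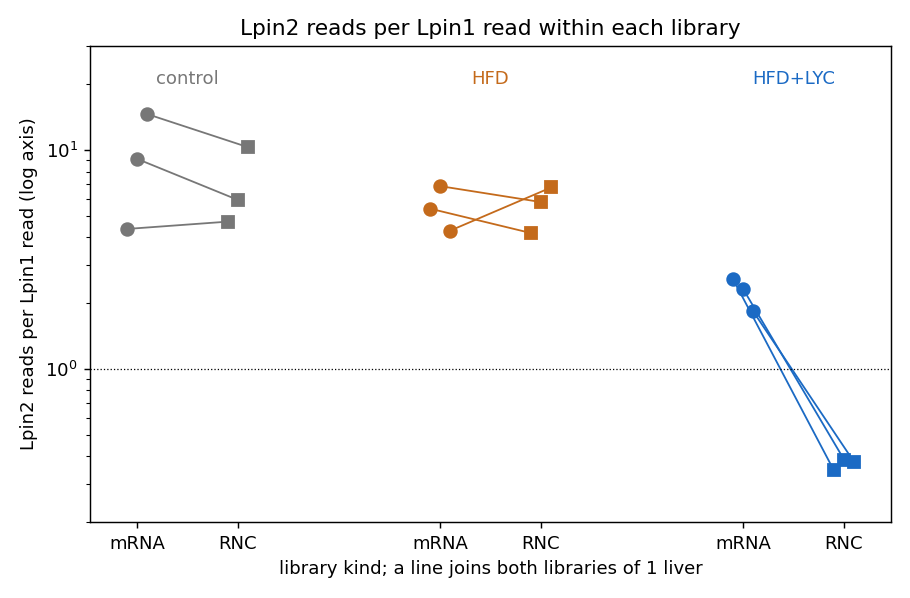
Lpin2 reads per Lpin1 read (log axis) in each library, with circles for mRNA, squares for RNC and a line for each of 9 livers. The dotted line marks equal reads. The 3 HFD+LYC livers drop from 1.84 to 2.59 in mRNA to 0.345 to 0.387 in RNC, while the other 6 livers stay between 4.19 and 14.7.

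The RNC to mRNA ratio of each gene was taken from a fit over all 18 libraries without a term for the liver. With the liver as the replicate block, the log2 change of the Lpin1 ratio from HFD to HFD+LYC was 1.70 (SE 0.458). Lpin1 had 0.739, 0.369 and 0.630 RNC CPM per mRNA CPM in HFD livers and 2.29, 1.20 and 2.13 in HFD+LYC livers. The groups did not overlap, also with library size alone, where the ratios were 0.430, 0.221 and 0.429 against 0.508, 0.583 and 1.06. Control livers, at 0.860, 1.20 and 0.552 (0.635, 0.583 and 0.340 with library size alone), overlapped both, and the log2 change from control to HFD+LYC was 0.98 (SE 0.523). The share of all genes whose HFD and HFD+LYC ratios did not overlap is not given here, so nothing is read from that separation. For Lpin2 the ratio was 0.572, 0.312 and 0.992 with HFD against 0.305, 0.198 and 0.435 with HFD+LYC, and the groups overlapped. Without the block, the log2 change of the ratio from HFD to HFD+LYC was 1.70 (SE 0.523) for Lpin1, -0.82 (SE 0.540) for Lpin2 and -2.33 (SE 1.07) for Lpin3, beside a median of -0.41 over all genes. From control to HFD it was -0.72 (SE 0.526), -0.31 (SE 0.540) and 0.15 (SE 0.988). Lpin1 was called in HFD+LYC against HFD, beside 3.42% of 12872 genes higher and 13% lower, but not without any 1 of the 3 HFD livers, nor without HFD+LYC replicate 1 or replicate 3 (1.36 to 2.04 over the livers left out in turn). With library size alone it was 1.11 (SE 0.667). In HFD against control 0 of 3 lipins were called, beside 0% of genes (20 genes with an unadjusted p under 0.05, and 0 listed genes by DESeq2).

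The other steps from glycerol phosphate to triglyceride were read from a list of 17 genes, of which 16 were tested in each kind of library. This and the other lists below were chosen with earlier results of these data known, so their counts and p-values are no independent support. In HFD+LYC against HFD mRNA 1 of 16 rose and none fell, beside 1.99% of all genes higher and 0.916% lower. With a replicate block 3 were called, and the share of all genes called with that block is not given here. The list's median log2 difference was -0.07, against -0.04 for all genes. The gene that rose was Dgat1, one of the enzymes that add the last acyl chain to diacylglycerol, which went from 24.2 ± 2.62 to 53.4 ± 6.53 CPM (log2 1.14, SE 0.262, adjusted p = 0.0413). This call was kept in 1 of 9 fits that left out a library, the fit without control mRNA replicate 2. Against control, Gpat4, a glycerol-phosphate acyltransferase, rose from 79.1 ± 7.49 to 350.2 ± 148 CPM (log2 2.15, adjusted p = 0.0102), together with Dgat1 (log2 1.22, adjusted p = 0.0234). These were 2 of 16, beside 3.31% of all genes higher and 2.23% lower. The Gpat4 call was lost without control mRNA replicate 3, and that of Dgat1 also without control replicate 1 or HFD+LYC replicate 1 or 2. The mitochondrial acyltransferase gene Gpam had a log2 difference of -0.98 (SE 0.332, adjusted p = 0.114) against HFD.

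In RNC, 5 of the 16 genes rose and 3 fell against HFD, beside 9.34% of all genes higher and 17.4% lower, with a list median of 0.66 against -0.29 for all genes. Gpat4 rose from 66.7 ± 15.1 to 276 ± 85 CPM (log2 2.05, SE 0.280, adjusted p = 0.00115) and kept its call in 9 of 9 fits with a library left out and with library size alone. Dgat2, the acyltransferase with the highest level of its step here, rose from 144 ± 16.7 to 356 ± 66.2 CPM (log2 1.30, SE 0.223, adjusted p = 0.00335), though not with library size alone. Dgat1, Agpat2 and Agpat3, the last 2 of which make phosphatidate, rose with log2 differences of 1.52, 0.94 and 0.95, and were called in 2, 2 and 1 of 9 fits with a library left out. Gpat2 and Gpat3 fell from 64 and 161 reads in the 3 HFD libraries to 0 in HFD+LYC RNC, which is at least 17.6-fold and 44.2-fold lower with 3 reads over the group as the limit. For Gpat2 this limit was 9.56-fold without HFD+LYC RNC replicate 1 and 11.2-fold without replicate 3, and for Gpat3 24.1-fold and 28.3-fold. HFD RNC replicate 2 held 115 of the 161 Gpat3 reads, and without it the limit was 20.8-fold. Mogat1, which acylates monoacylglycerol, fell from 46, 80 and 51 reads to 0, 0 and 4 (adjusted p = 0.0171), a call lost without HFD RNC replicate 2. Against control RNC, 6 rose (Gpat4, Dgat2, Gpam, Agpat3, Dgat1 and Gpd1) and 2 fell (Gpat2 and Gpat3). Of all genes, 9.23% were higher and 17.1% lower there. Both Gpat2, with 13, 28 and 23 reads in HFD RNC, and Gpat3, with a mean of 3.72 ± 3.15 CPM there, lay in the range of 1 to 5 CPM described for Lpin3. In mRNA, Gpat2 was at 8.80 ± 4.30 CPM in HFD and 15.2 ± 13.1 CPM in HFD+LYC livers, and Gpat3 at 4.57 ± 1.72 and 4.70 ± 2.19 CPM.

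**Figure D4:**
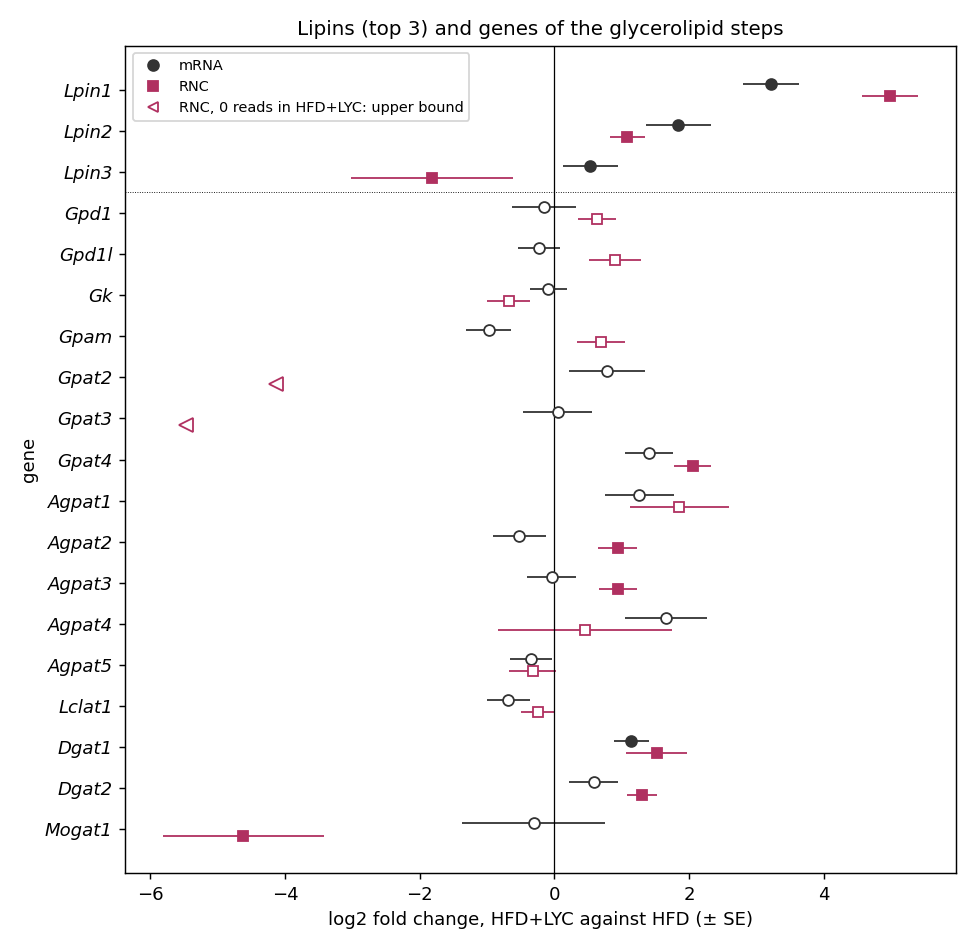
Log2 fold change of HFD+LYC against HFD with SE for the 3 lipins and 16 genes of the glycerolipid steps, in mRNA (circles) and RNC (squares). Among the listed genes filled symbols passed an adjusted p under 0.05, the lipins are drawn filled without a test, and triangles mark bounds for genes with 0 HFD+LYC reads. Lpin1 lies to the right of every listed gene in both kinds of library, at 3.21 and 4.98.

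Several lipid phosphate phosphatases of the Plpp family, though not all members listed here, also dephosphorylate phosphatidate, mostly at membranes facing outward. Of 7 listed, 6 were tested in mRNA and 5 in RNC. In each of the 6 comparisons of mRNA or RNC edgeR called 0, beside the shares of all genes given above. At most 1 had an unadjusted p under 0.05 in any comparison of mRNA or RNC. DESeq2 called 1 of 5 in HFD+LYC against HFD RNC, and the fit with a replicate block 1 of 6 in HFD+LYC against HFD mRNA. Plpp3, the one with the highest level, was at 85.5 ± 11.5 CPM in control, 102 ± 34.3 in HFD and 87.2 ± 9.78 in HFD+LYC mRNA. In HFD+LYC against HFD mRNA the 6 log2 differences ran from -0.97 for Plpp6 to 1.36 (SE 0.853) for Plpp7, with a median of -0.04. Plpp7 was low, at 0.739 ± 0.815 CPM in HFD and 1.97 ± 1.34 CPM in HFD+LYC mRNA.

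A list of 23 genes covered phospholipid synthesis and diacylglycerol kinases, and not all of the enzymes use diacylglycerol or phosphatidate themselves. Of the 23, 21 were tested in mRNA and 19 in RNC. In HFD+LYC against HFD mRNA, edgeR called 0 of 21, with 7 at an unadjusted p under 0.05, DESeq2 called 3, and the fit with a replicate block 3. Against control 1 fell, the ethanolamine kinase gene Etnk1 (log2 -1.40, adjusted p = 0.0398), which was called in 2 of 9 fits with a library left out. Of all genes, 3.31% were higher and 2.23% lower against control. In RNC, 3 of 19 rose and 3 fell against HFD, beside 9.34% of all genes higher and 17.4% lower, so that the lower count was near the share of all genes. Cept1, a choline and ethanolamine phosphotransferase that takes diacylglycerol as its substrate, fell from 77.7 ± 6.06 to 14.7 ± 2.48 CPM (log2 -2.39, SE 0.224, adjusted p = 0.000131). Its partner in phosphatidylcholine synthesis, Chpt1, fell from 229 ± 31.1 to 144 ± 9.0 CPM (adjusted p = 0.0364), and Etnk2, another ethanolamine kinase gene, rose from 91.7 ± 24.8 to 219 ± 40.6 CPM (adjusted p = 0.00766). Cept1 kept its call in 9 of 9 fits with a library left out and under 6 of 6 other settings, Etnk2 in 9 of 9 and 5 of 6, and Chpt1 in 3 of 9 and 4 of 6. In mRNA, Cept1 was at 121 ± 26.6 and 90.4 ± 4.01 CPM (log2 -0.42, adjusted p = 0.360).

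A list of 21 genes held known regulators of the lipins, chiefly of Lpin1. In HFD+LYC against HFD mRNA 2 of them rose and none fell, beside 1.99% of all genes higher and 0.916% lower. With a replicate block 3 were called. Esrra, the nuclear receptor ERRα, went from 43.1 ± 16.8 to 162 ± 42.5 CPM (log2 1.91, SE 0.367, adjusted p = 0.0240), and Ppargc1b, the coactivator PGC-1β, from 3.12 ± 0.856 to 13.6 ± 5.51 CPM (log2 2.12, adjusted p = 0.0481). They were called in 4 and 3 of 9 fits with a library left out. Ppargc1a, the gene of PGC-1α, was at 6.63 ± 1.31 in control, 11.8 ± 2.01 in HFD and 11 ± 4.70 CPM in HFD+LYC mRNA (adjusted p = 0.875 for HFD+LYC against HFD). Ctdnep1 and Cnep1r1, the subunits of the phosphatase complex that dephosphorylates lipin 1, had log2 differences of 0.36 and -0.25 in mRNA (adjusted p = 0.363 and 0.518). In RNC, Akt1, Akt2, Hnf4a, Ppargc1b and Esrra rose and Cnep1r1 fell against HFD, beside 9.34% of all genes higher and 17.4% lower. Nr3c1, the glucocorticoid receptor gene, was at 63.8 ± 11.9 and 48.9 ± 5.85 CPM in HFD and HFD+LYC mRNA (adjusted p = 0.364).

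Of 20 fatty acid oxidation genes that PPARα and PGC-1α are known to induce, edgeR called 0 in HFD+LYC against HFD mRNA. Of all genes, 1.99% were called higher and 0.916% lower. In the list, 4 had an unadjusted p under 0.05, 2 were called by DESeq2 and 1 with a replicate block. The list's median log2 difference was -0.39. Against control 1 rose, the peroxisomal thiolase gene Acaa1b (log2 2.29, adjusted p = 0.0194), a call lost without control mRNA replicate 3. The shares of all genes there were 3.31% higher and 2.23% lower. In RNC against HFD 5 of 20 fell and none rose, beside 17.4% of all genes lower and 9.34% higher. Among them was Acadm, the medium-chain acyl-CoA dehydrogenase gene, from 290.4 ± 73.1 to 58.4 ± 16.6 CPM (log2 -2.32, SE 0.293, adjusted p = 0.000801). The other 4 were Acaa2, Hadhb, Ehhadh and Fabp1. Against control RNC 4 rose (Vnn1, Acaa1b, Fgf21 and Cyp4a14) and 3 fell (Acadm, Acaa2 and Hadhb). The shares of all genes were 9.23% higher and 17.1% lower.

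Of the 6 lists, the glucocorticoid and fasting response had the largest median log2 difference in HFD+LYC against HFD mRNA, 1.50 against -0.04 for all genes. This list too was chosen with earlier results of these data known, so its median and counts are no independent support. Of its 20 genes 5 rose and none fell, beside 1.99% of all genes higher and 0.916% lower. A log2 difference above 0 was found for 16, and 10 were called with a replicate block. The share of all genes called with that block is not given here. No source used here gives the time of day or the feeding state at sampling. Fkbp5, a co-chaperone gene induced through the glucocorticoid receptor, went from 15.2 ± 2.24 to 145 ± 31.2 CPM (log2 3.25, SE 0.333, adjusted p = 0.00146). Cebpb, a transcription factor gene of the fasting response, went from 66.7 ± 13.3 to 523 ± 33.2 CPM (log2 2.97, SE 0.356, adjusted p = 0.00347). Both kept their calls in 9 of 9 fits with a library left out and under 6 of 6 other settings. Sds, which breaks down serine, Cebpd and Angptl4, an inhibitor of lipoprotein lipase, rose with log2 differences of 2.43, 1.74 and 2.05, and were called in 3, 4 and 2 of those 9 fits. The clock gene Per1 was at 15.5 ± 19.5 and 187 ± 25.8 CPM (log2 3.60, SE 0.904, adjusted p = 0.0568). Against control 9 of 20 rose and none fell, beside 3.31% of all genes higher and 2.23% lower. Per1 was among the 9 (log2 5.52, adjusted p = 0.0134), together with Fkbp5, Cebpb, Cebpd, Sds, Angptl4, Got1, Tsc22d3 and Mt2. In RNC 7 rose and 1, Tdo2, fell against HFD, beside 9.34% of all genes higher and 17.4% lower, and Fkbp5 was at 5.05 ± 0.853 and 29.5 ± 8.21 CPM (log2 2.54, adjusted p = 0.00222). Not all members were higher: G6pc, the glucose-6-phosphatase gene, had a log2 difference of -0.29 in mRNA (adjusted p = 0.796) and Tdo2 of -0.92 (adjusted p = 0.206).

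**Figure D5:**
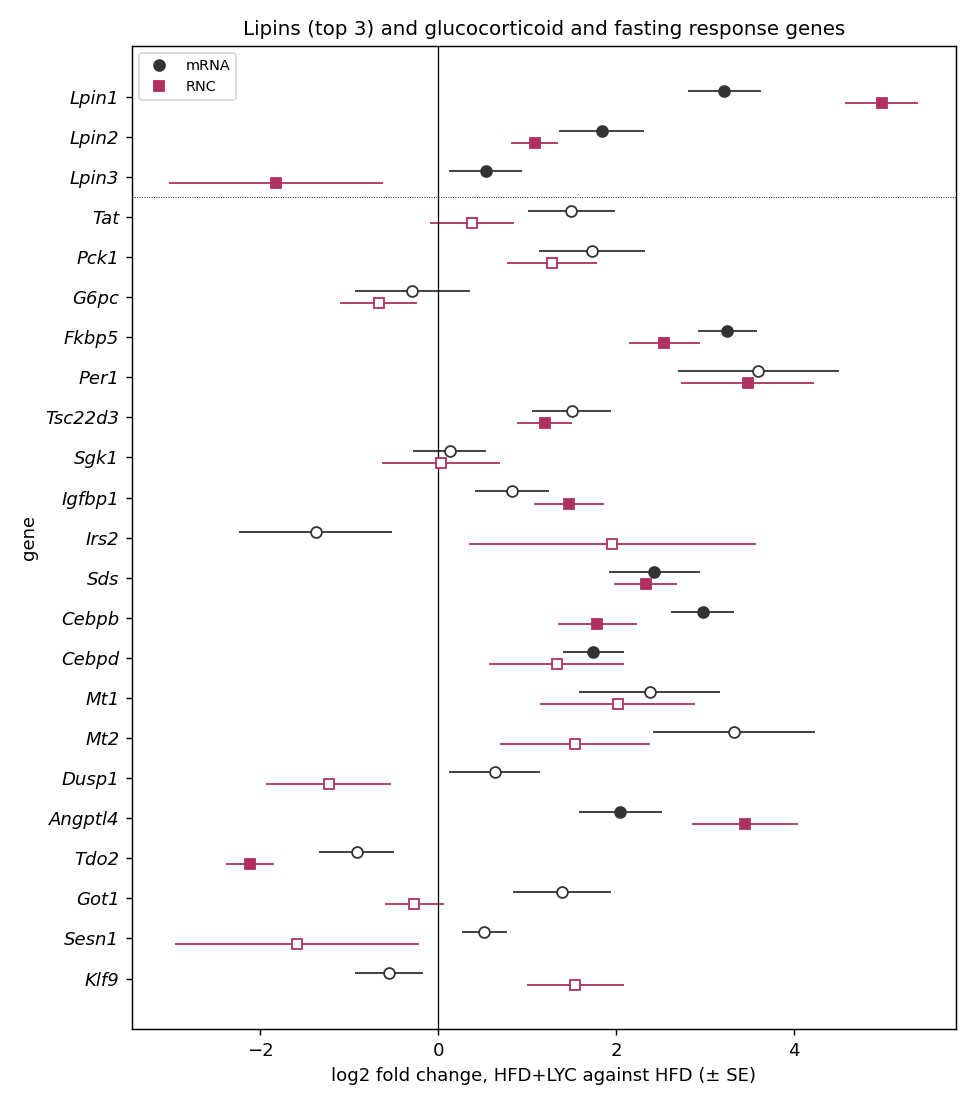
Log2 fold change of HFD+LYC against HFD with SE for the 3 lipins and 20 glucocorticoid and fasting response genes, in mRNA (circles) and RNC (squares). Among the listed genes filled symbols passed an adjusted p under 0.05, and the lipins are drawn filled without a test. The list was chosen with earlier results of these data known. In mRNA Fkbp5 (3.25) and Per1 (3.60) lie near Lpin1 (3.21), and in RNC Lpin1 (4.98) lies to the right of all listed genes.

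Over the 6 lists, 8 genes were called in HFD+LYC against HFD mRNA, beside 1.99% of all genes higher and 0.916% lower. With a replicate block 21 were called. The share of all genes called with that block is not given here, so the larger count may not be particular to the lists. In HFD+LYC against HFD mRNA, Lpin2 was called with the block, at a log2 difference of 1.89, but not in the main fit. Over all 17 fits, alternatives and left-out libraries included, it was called in 4. Nothing is read from these calls, since the same counts selected the gene. Without the block, only 2 listed genes were called when HFD replicate 1, HFD replicate 3 or HFD+LYC replicate 2 was left out. In HFD against control 0 listed genes were called by edgeR in mRNA or RNC, beside 0.0158% and 0.00858% of all genes. There 358 and 214 of all genes had an unadjusted p under 0.05, and DESeq2 called 3 listed genes in each kind of library. The smallest p-values of the glycerolipid steps in that comparison were those of Gpat3 in mRNA (1.50 ± 0.808 and 4.57 ± 1.72 CPM in control and HFD) and Gpam in RNC (7.78 ± 0.474 and 18.2 ± 2.60 CPM), both with an adjusted p above the threshold. The comparisons with control and with HFD share the HFD+LYC livers, so their counts are not independent.

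For each lipin, the genes with the most similar course over the 9 mRNA libraries were ranked by the root mean square difference of log2 CPM around each gene's own mean, among the 9922 genes whose mean reached 5 CPM. The nearest to Lpin1 were Ctcfl (0.621), Elovl6 (0.670), Fkbp5 (0.687), Per3 (0.691) and Ap1s3 (0.697), where the spread of Lpin1 itself was 1.96. Ctcfl (0.874, 1.41 and 37.2 CPM in control, HFD and HFD+LYC livers) and Ap1s3 (2.18, 2.62 and 27.8 CPM) reached the minimum mean only through HFD+LYC, the diet on which they were high, so their place in this order is partly set by the minimum. Elovl6, a fatty acid elongase gene, had means of 44.8, 129 and 581 CPM in control, HFD and HFD+LYC mRNA, and the clock gene Per3 of 3.85, 19.3 and 104 CPM. Lpin2 was the 26th nearest to Lpin1 (0.912). Among the nearest to Lpin2 were Tef (0.230), Lamb3 (0.272), Por (0.290) and Grasp (0.338), and Grasp too, at 1.83, 2.31 and 11 CPM, reached the minimum only through HFD+LYC. Tef, a clock-controlled transcription factor gene that binds the D-box, had means of 66.3, 129 and 500 CPM, and Por, the gene of cytochrome P450 reductase, of 93.0, 134 and 633 CPM. Lpin3, which varied little (0.494), was nearest to Odf2l (0.0999), Scmh1 (0.134), Tmem39a (0.135), Helq (0.138) and Parp2 (0.141). These are descriptions over the 9 libraries in which the diets differ, and they share depth and scaling.

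Skeletal muscle and adipose tissue also hold lipins, mainly Lpin1, so markers of these and other cells are given beside the Lpin1 result. The 8 muscle markers summed to 1.64 to 2.93 CPM in HFD+LYC and 0.947 to 2.60 CPM in HFD mRNA, and to 0 to 8.16 CPM in HFD+LYC RNC, and Ckm was at 0 in all of these libraries. The 7 adipocyte markers summed to 23.9 to 30.4 CPM in HFD and 14.1 to 168 CPM in HFD+LYC mRNA, and to 25.6 to 44.3 and 36.5 to 259 CPM in RNC. In HFD+LYC mRNA 0 to 5 of the 7 were at 0 in a library and none in all 3, whereas 3 to 4 were at 0 in HFD mRNA. In HFD+LYC RNC, where low genes were often at 0, Adipoq, Plin1, Lep, Retn and Cidea were at 0 in all 3 libraries. The 8 Kupffer cell markers summed to 253 to 518 CPM in HFD and 80.9 to 141 CPM in HFD+LYC RNC. For the 7 endothelial markers the sums there were 133 to 145 and 13.1 to 40.8 CPM. In mRNA the diets overlapped, with Kupffer cell markers at 270.9 to 633.8 CPM in HFD and 156.7 to 422.6 CPM in HFD+LYC livers. Endothelial markers overlapped in mRNA too, at 183.9 to 249.1 CPM in HFD and 204.1 to 287.3 CPM in HFD+LYC livers. The 6 intestinal markers summed to 168 to 261 CPM in HFD and 324 to 581 CPM in HFD+LYC mRNA, with Cdh17, Sis and Krt20 at 0 in all 6 libraries, and in RNC to 141 to 366 CPM in HFD and 37.9 to 95.3 CPM in HFD+LYC livers, the other direction. The 9 hepatocyte markers summed to 55952 to 112012 CPM in HFD and 31300 to 83236 CPM in HFD+LYC mRNA, which overlapped, and to 85775 to 137135 and 146764 to 217048 CPM in RNC, which did not. The 5 pancreatic markers summed to 8.85 to 18.7 and 2.76 to 10.2 CPM in mRNA. Leaving out any 1 mRNA library left the log2 difference of Lpin1 between HFD+LYC and HFD at 2.95 to 3.51, and any 1 RNC library at 4.82 to 5.08. The part of these cells in the lipin levels was not tested.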

How the data were processed

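Total and ribosome-nascent chain RNA of 9 mouse livers gave 18 libraries. Per the file headers, the authors deposited 3 values for each gene, with splice variants merged: its count of reads, its RPKM and its longest transcript's length. The submitters' processing notes name bcl2fastq and the mm10 build. No source used here names the aligner or the strand setting. The deposited RPKM rests on a larger library total than the listed reads add up to, and 0.765% to 29.9% of that total is not listed.

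Counts were fitted with edgeR 4.0.16 in R 4.3.3 (filterByExpr with minimum count 10 and total 15, TMM, robust quasi-likelihood, two-sided Benjamini-Hochberg adjustment over all tested genes). The 9 mRNA and the 9 RNC libraries were fitted apart, and an interaction model of diet with library kind, over the 18 libraries and 12872 genes, gave changes in RNC to mRNA ratio. That model had no term for the liver, which was added as the replicate block in an alternative. The fits were also run on simulated counts, with changes set in HFD libraries only and a fixed spread not taken from these data. No result here rests on that run. Alternatives were DESeq2 1.42.0, other scalings and filters, limma 3.58.1 on log2(RPKM + 0.1), a replicate block and leaving out each library. Library size as the only scaling was added after seeing the data. Depth was 4533729 to 12742436 listed reads, so that 3 reads, the limit a count of 0 allows, stood for 0.235 to 0.662 CPM. Such limits cover counting error only.

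The 3 lipins and the 6 gene lists (108 genes) were chosen with earlier results of these data known. Genes were named when called on a list, when among its 3 with the smallest p or the highest mean, or when among the 5 most like a lipin, and the text gives a part of them. Results of some genes that met the rule are not reported here. Promoter windows came from RefSeq GRCm38.p6 and overlapping genes from GENCODE.

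The mRNA and RNC library of a diet and replicate carry the same animal code, so they were taken as 1 liver. Their deviations correlated across genes with r of -0.024, -0.065 and 0.349 in control and 0.698, 0.028 and 0.542 in HFD livers. In HFD+LYC livers r was 0.087, 0.077 and -0.048, so the pairing rests on the labels. Across diets, same-numbered libraries deviated together in every pair for HFD+LYC and HFD mRNA (r across genes 0.169, 0.373 and 0.576) and for HFD and control RNC (0.426, 0.152 and 0.112), and only there. Such pairing comes from the data, since no label links livers of different diets. The replicate block moved the count of called list genes in the first of these comparisons and is given beside it.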

Additional observations from a re-analysis of the deposited data

Results flagged for a closer look

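The RNC to mRNA ratio of 7 genes given here changed differently from HFD to HFD+LYC in a test of the interaction of diet and library kind (edgeR, adjusted p under 0.05). Among the glycerolipid steps, the log2 change of the ratio was 1.61 (SE 0.518, adjusted p = 0.0406) for Gpam, which was called in 2 of 9 fits that left out a liver. Gpat2 and Gpat3 had fitted changes of -8.34 and -8.68, which are no bounds, since both had 0 reads in all 3 HFD+LYC RNC libraries, and were called in 9 of 9 such fits. Among genes of phospholipid synthesis and diacylglycerol kinases, Cds2, a CDP-diacylglycerol synthase gene, had a change of 1.26 (SE 0.415, adjusted p = 0.0446). It was called in 2 of 9 fits and not with the liver as the replicate block (1.24, adjusted p = 0.0743). The other 6 genes were called with that block too. Cept1 had a change of -2.05 (SE 0.332, adjusted p = 0.000558), called in 9 of 9 fits. Dgke, a diacylglycerol kinase gene, had a fitted change of -6.52 with 0 reads in HFD+LYC RNC, called in 9 of 9 fits. Of the fatty acid oxidation genes, Acadm had a change of -2.29 (SE 0.426, adjusted p = 0.00141), called in 9 of 9 fits. The median change over all genes was -0.41, with 3.42% called higher and 13% lower. In HFD RNC, Gpat2, Gpat3 and Dgke had means of 1.80, 3.72 and 1.19 CPM, in the range described for Lpin3.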

How the results depend on the processing

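No alternative turned the direction of a called result. Of the lipin log2 differences, 148 of 156 under other settings and 213 of 216 with a library left out moved by less than the spread between replicates. The exceptions were in comparisons with HFD+LYC RNC libraries. With library size alone, an alternative added after seeing the data, HFD+LYC against HFD RNC was 4.41 for Lpin1 and 0.53 for Lpin2, against control 1.19 for Lpin2, and the RNC to mRNA ratio of Lpin1 changed by 1.11. With limma on log2 RPKM, HFD+LYC against HFD RNC was 4.03 for Lpin1 and 0.17 for Lpin2, and against control 4.89 and 0.80. With a library left out, Lpin3 ranged from -7.32 to -1.26 in HFD+LYC against HFD RNC, from -7.45 to -1.39 against control and from -8.39 to -1.28 in the ratio, where HFD+LYC replicate 3 held all its reads.

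The number of listed genes called depended more on the choices. DESeq2 called 3 in HFD against control mRNA and 3 in RNC, where edgeR called 0, and 21 against 8 in HFD+LYC against HFD mRNA, 34 against 14 in HFD+LYC against control mRNA and 15 against 8 in the ratio. Library size alone gave 2 in HFD+LYC against HFD mRNA, and 21 and 15 in RNC against HFD and against control, where the count was 33 in each. A fit of only the 6 libraries compared gave 3 in HFD against control RNC, 19 in HFD+LYC against HFD RNC and 20 against control. The replicate block gave 21 in HFD+LYC against HFD mRNA and 29 in HFD+LYC against control mRNA, where numbers are not shown to pair the livers, and changed no other count by over 1.5 times. With a library left out the counts ran from 2 to 10 in HFD+LYC against HFD mRNA, 3 to 22 against control mRNA, 19 to 42 and 17 to 40 in RNC, and 5 to 13 in the ratio. Counts moved by over 1.5 times without control mRNA replicate 3 (4 against HFD, 3 against control), any HFD mRNA replicate (2, 3 and 2 against HFD), HFD+LYC mRNA replicate 1 (3) or 2 (2), HFD mRNA replicate 3 (22 against control), HFD RNC replicate 3 (19), any control RNC replicate (20, 18 and 17), and in the ratio HFD replicate 2 (5) or HFD+LYC replicate 2 (13). The cause was not tested. With 3 livers a group and 0 to 32 Lpin3 reads in an RNC library, Lpin3 was the lipin that depth limited most.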
